A study of Mus musculus with 18 samples.

Results

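Carbonic anhydrases are zinc enzymes that turn carbon dioxide and water into bicarbonate and a proton, and the reverse. Mouse genes of the family are named Car, and the 8 described here are Car2, Car3, Car4, Car6, Car8, Car9, Car12 and Car13. All probes carrying these gene names were taken, which gave 11 probes, out of 41174 different probes for 28919 genes or unnamed transcripts. The 8 genes were chosen by their measured levels in these same NIC, KI and normal samples, so their levels, differences and overlaps are given as a description with no test. The other 8 measured genes of the family (Car1, Car5a, Car5b, Car7, Car10, Car11, Car14 and Car15) complete a family of 16.

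Gene expression was measured in 9 RNA samples of whole flash-frozen mammary tissue from female FVB/N mice. There were 2 NIC samples, each a pool of equal amounts of 5 tumours, 5 single tumours from mice with an ErbB2 knock-in (called KI), and 2 normal mammary glands. The labels used here do not spell out NIC, and they name neither the promoter or allele behind NIC and KI tumours nor the age of any mouse. A NIC value is an average over 5 tumours, so the spread of single NIC tumours is not seen. Every RNA was hybridised on 2 arrays, with Cy3 and Cy5 swapped, together with Stratagene's pooled mouse reference RNA, and a level below is the log2 ratio of sample over reference, averaged over both arrays. A level of 0 means as much signal as the reference. It does not by itself mean absence, though for a dim probe both signals can lie near background. Levels of different probes are not set against each other.

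The members differ in where they work. Car2, Car3 and Car13 are cytosolic enzymes, and Car8 is a cytosolic relative that lacks the catalytic site. Car4 is anchored to the cell surface by a lipid, Car9 and Car12 span the membrane with the active site outside the cell, and Car6 is secreted, chiefly into saliva and milk. Together with bicarbonate and proton transporters, the surface enzymes help cells to hold their internal pH and to shed acid. In breast cancer, CAIX and CAXII (the human proteins of Car9 and Car12) are well known, the gene of CAIX as a target of hypoxia-inducible factors and that of CAXII as an oestrogen-responsive gene.

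NIC and normal arrays share 1 of the 2 deposited value tables, whereas the KI arrays fill the other, which has a different platform record. A KI effect and an effect of the table or platform cannot be told apart, so only NIC against normal was tested, by limma, and p-values are given for genes outside the 8. At an adjusted p under 0.05 limma called 18.6% of all 28919 genes in NIC against normal, of which the higher ones made up 8.79% of all genes and the lower ones 9.81%. With either NIC pool left out it called 0, although 6402 and 6977 genes had an unadjusted p under 0.05. All 18 columns had medians between −0.0099 and 0.026, but the interquartile range was 0.514 to 0.559 in NIC columns, 0.422 to 0.562 in KI columns and 0.761 to 0.970 in normal columns. The dye pairs of a sample correlated at r = 0.824 to 0.943 across spots, which are not independent replicates. The median level over 12 mammary epithelium genes was 2.43 and 2.52 in the NIC pools, 2.58 to 2.93 in KI tumours, and 0.83 and 1.35 in normal glands. Of those 12 genes limma called 8 higher and 1 lower in the NIC pools. The median over 20 white adipocyte genes was 0.37 and 0.074 in the NIC pools, −0.014 to 0.39 in KI tumours, and 3.90 and 3.46 in normal glands. In such bulk tissue, fewer cells of a type and less RNA per cell cannot be told apart.

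A pair of groups was called apart for a gene when their samples did not overlap and their means differed by at least 1 log2 unit. By that rule 7 of the 8 members were apart between NIC pools and normal glands, where 18.9% of all genes were. Higher in the NIC pools were Car6, Car8, Car9 and Car12 (10.8% of all genes were higher), and lower were Car3, Car4 and Car13 (8.1% of all genes were lower). Between KI tumours and normal glands 4 members were apart, against 15.5% of all genes: Car2 and Car12 were higher (9.62% of all genes) and Car3 and Car4 lower (5.92% of all genes). Between KI tumours and NIC pools 2 were apart, against 5.6% of all genes, and both Car6 and Car12 were lower in KI tumours (2.7% of all genes), while 0 were higher (2.9% of all genes). Since the members were chosen for their levels, nothing is read from these counts. The median difference over the 8 was 0.93 in NIC against normal (−0.057 over all genes), −0.65 in KI against normal (−0.026 over all genes) and −0.51 in KI against NIC (0.0035 over all genes). The 3 comparisons share samples and are not independent.

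**Figure D1:**
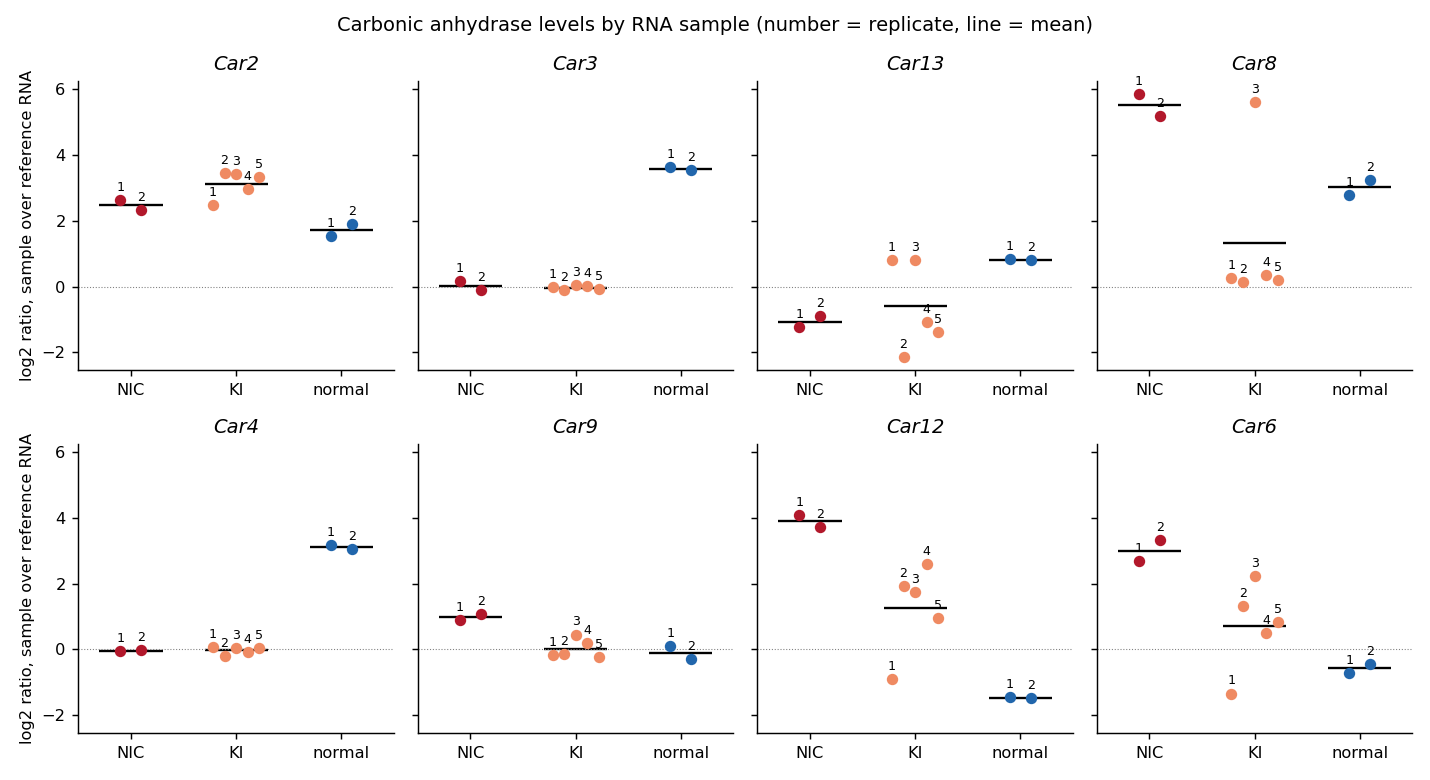
Level of each of the 8 genes (vertical axis, log2 ratio of sample over reference RNA) in the 2 NIC pools, 5 KI tumours and 2 normal glands. Each point is 1 RNA sample with its replicate number, and each line is a group mean. Genes with 2 probes are shown by the brighter one. By the probes shown, Car3 and Car4 stand at 3.05 or more in both normal glands and at 0.16 or less in every tumour sample. The other Car3 probe, not shown here, was at 2.49 in KI tumour 3 and 2.32 in NIC pool 1. Car8 is at 5.62 in KI tumour 3 and at 0.36 or less in the other KI tumours.

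Car2 encodes the fast cytosolic enzyme found in red blood cells, osteoclasts and many epithelia. Its level was 2.64 and 2.32 in the NIC pools, 2.47, 3.45, 3.43, 2.97 and 3.33 in KI tumours 1 to 5, and 1.52 and 1.89 in normal glands. Every tumour sample lay above both normal glands, and the KI tumours overlapped the NIC pools through KI tumour 1. The group means were 2.48 ± 0.23 in NIC pools (SD, n = 2), 3.13 ± 0.42 in KI tumours (n = 5) and 1.71 ± 0.26 in normal glands (n = 2). Car2 was thus 2.68-fold higher in KI tumours than in normal glands (difference 1.42), whereas the NIC difference of 0.77 (1.71-fold) was short of 1 log2 unit. Scaling all arrays to 1 interquartile range moved these differences to 1.36 in NIC and 2.27 in KI tumours. The dyes disagreed for this probe, with the Cy5 level higher in every sample. The gap was 1.17 to 1.22 log2 units in each KI tumour, 0.37 and 0.23 in the NIC pools, and 0.64 and 0.91 in normal glands. By the Cy3 arrays alone Car2 was apart in NIC against normal (1.01) and KI against NIC was 0.20, whereas by the Cy5 arrays alone it was apart in KI against NIC (1.10) and NIC against normal was 0.53.

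Markers of red blood cells and osteoclasts are given beside Car2. Of 8 measured red blood cell genes 0 were called higher and 1 lower in the NIC pools (8.79% and 9.81% of all genes). Their median level was 0.13 in both NIC pools, −0.026 to 0.11 in KI tumours and 0.27 in both normal glands. Of 10 macrophage and osteoclast genes 0 were higher and 1 was lower in the NIC pools, with a median level of 0.30 and 0.33 in NIC pools, 0.57 to 1.89 in KI tumours, and 0.82 and 0.92 in normal glands. The part of these cells in the Car2 levels was not tested.

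Car3 encodes a slow cytosolic enzyme that is abundant in fat and in skeletal muscle. By its brighter probe, the level was 0.16 and −0.10 in the NIC pools, −0.020, −0.12, 0.044, 0.0045 and −0.060 in KI tumours 1 to 5, and 3.64 and 3.54 in normal glands. The tumour samples lay within a narrow band near 0, far below both glands. The means were 0.026 ± 0.18 in NIC pools (SD, n = 2), −0.030 ± 0.062 in KI tumours (n = 5) and 3.59 ± 0.074 in normal glands (n = 2). By this probe alone, Car3 was 11.8-fold lower in NIC pools and 12.3-fold lower in KI tumours than in normal glands (differences −3.56 and −3.62). The dyes of this probe disagreed by 1.73 log2 units in normal gland 2, and the differences were −2.82 and −3.06 by the Cy3 arrays alone and −4.31 and −4.18 by the Cy5 arrays alone. With all arrays scaled to 1 interquartile range they were −2.21 and −2.28. On the KI arrays the probe was well above background in every case, and the signals of NIC and normal arrays were not used here.

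The other Car3 probe was also highest in both normal glands but varied more among tumours. It stood at 2.32 and −0.68 in the NIC pools, 0.46, 1.70, 2.49, −0.27 and 1.61 in KI tumours 1 to 5, and 3.39 and 3.35 in normal glands. NIC pools and KI tumours each spread over more than 2 log2 units by this probe and over less than 1 by the brighter one. Its differences from normal were −2.55 in NIC pools (5.85-fold lower) and −2.17 in KI tumours (4.51-fold lower). In NIC pool 1 the dyes of this probe disagreed by 1.67 log2 units. It is annotated to a RefSeq transcript of Car3, and the brighter probe is not. Its tumour signal was above that of the brighter probe in KI tumours 2, 3 and 5 and below it in KI tumours 1 and 4. Which probe reads Car3 better was not tested.

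Adipocyte and muscle markers are given here beside Car3. Of 20 white adipocyte genes limma called 14 lower and 0 higher in the NIC pools (9.81% and 8.79% of all genes). In KI tumours against normal glands 15 were apart and lower (5.92% of all genes). The median differences were −3.05 in NIC and −3.01 in KI tumours. The lipid droplet gene Plin4 was among the called genes (−5.61 ± 0.34 SE in NIC against normal, adjusted p = 0.0101 by limma). Of 16 skeletal muscle genes 2 were called lower and 0 higher in the NIC pools, and their median level was −0.34 and −0.30 in NIC pools, −0.11 to 0.74 in KI tumours, and −0.33 and 0.71 in normal glands. The part of fat or muscle in the Car3 levels was not tested.

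Car13 encodes another cytosolic enzyme. Its level was −1.23 and −0.90 in the NIC pools, 0.81, −2.14, 0.82, −1.06 and −1.37 in KI tumours 1 to 5, and 0.85 and 0.80 in normal glands. KI tumours 1 and 3 lay between the 2 normal glands, tumour 4 lay between the NIC pools, and tumours 2 and 5 lay below them. The means were −1.06 ± 0.23 in NIC pools (SD, n = 2), −0.59 ± 1.34 in KI tumours (n = 5) and 0.82 ± 0.037 in normal glands (n = 2). Car13 was 3.70-fold lower in NIC pools than in normal glands (difference −1.89). The KI difference from normal of −1.41 stands beside a range of 2.96 among KI tumours and overlapping groups. The overlap is narrow, and the groups were apart by the Cy3 arrays alone, with KI values from normexp and loess or from the scanner log ratio, and without normal gland 2. By the Cy3 arrays alone, KI tumours 1 and 3 were at 0.73 and 0.72, against 0.77 and 0.74 in normal glands 1 and 2. Without normal gland 2, KI tumour 3 at 0.82 stood against normal gland 1 at 0.85. In these settings being apart rests on small gaps, and the lower KI mean rests on KI tumours 2, 4 and 5.

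Along chromosome 3 the genes Car13, Car1, Car3 and Car2 follow each other in the RefSeq annotation (GRCm38.p6). Their differences in NIC against normal were −1.89 for Car13, −0.27 for Car1, −3.56 for Car3 and 0.77 for Car2, and in KI against normal −1.41, −0.39, −3.62 and 1.42 in the same order. Car2 was thus the one gene of this row with positive differences.

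Car8 encodes a protein that lacks a zinc-binding residue and carbonic anhydrase activity, best known from cerebellar Purkinje cells, where it binds an inositol trisphosphate receptor. Its brighter probe stood at 5.85 and 5.18 in the NIC pools, 0.27, 0.14, 5.62, 0.36 and 0.21 in KI tumours 1 to 5, and 2.79 and 3.24 in normal glands. KI tumour 3 lay between the 2 NIC pools, and the other KI tumours lay below both normal glands. KI tumour 3 was 38.5-fold above the next KI tumour. The means were 5.52 ± 0.48 in NIC pools (SD, n = 2), 1.32 ± 2.41 in KI tumours (n = 5) and 3.02 ± 0.32 in normal glands (n = 2), which made Car8 5.66-fold higher in NIC pools than in normal glands (difference 2.5).

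The KI mean of Car8 rests on that single tumour. KI against normal was −1.70 with KI tumour 3 and −2.77 without it, and KI against NIC was −4.20 with it and −5.27 without it. With all 5 KI tumours the groups overlapped in both comparisons, but KI tumours were apart from NIC pools when KI values came from normexp and loess, or without NIC pool 2. Without KI tumour 3 the KI tumours were apart from both other groups. Against the negative controls of the array, the signal of the brighter probe was 80.3 times their 95th percentile in KI tumour 3 and 1.96 to 2.99 times in the other KI tumours.

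The other Car8 probe showed the same samples high. Its level was 1.76 and 1.53 in the NIC pools, 0.13, 0.059, 1.74, 0.034 and 0.017 in KI tumours 1 to 5, and 0.19 and 0.58 in normal glands. Here, too, KI tumour 3 stood between the NIC pools, and the other KI tumours lay just below the normal glands. By this probe the NIC difference from normal was 1.26, and the KI difference from normal was 0.010 with overlapping groups. On the mean of both probes these differences were 1.88 in NIC and −0.84 in KI. With arrays scaled to 1 interquartile range the brighter probe gave 3.57 in NIC and −0.44 in KI.

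**Figure D2:**
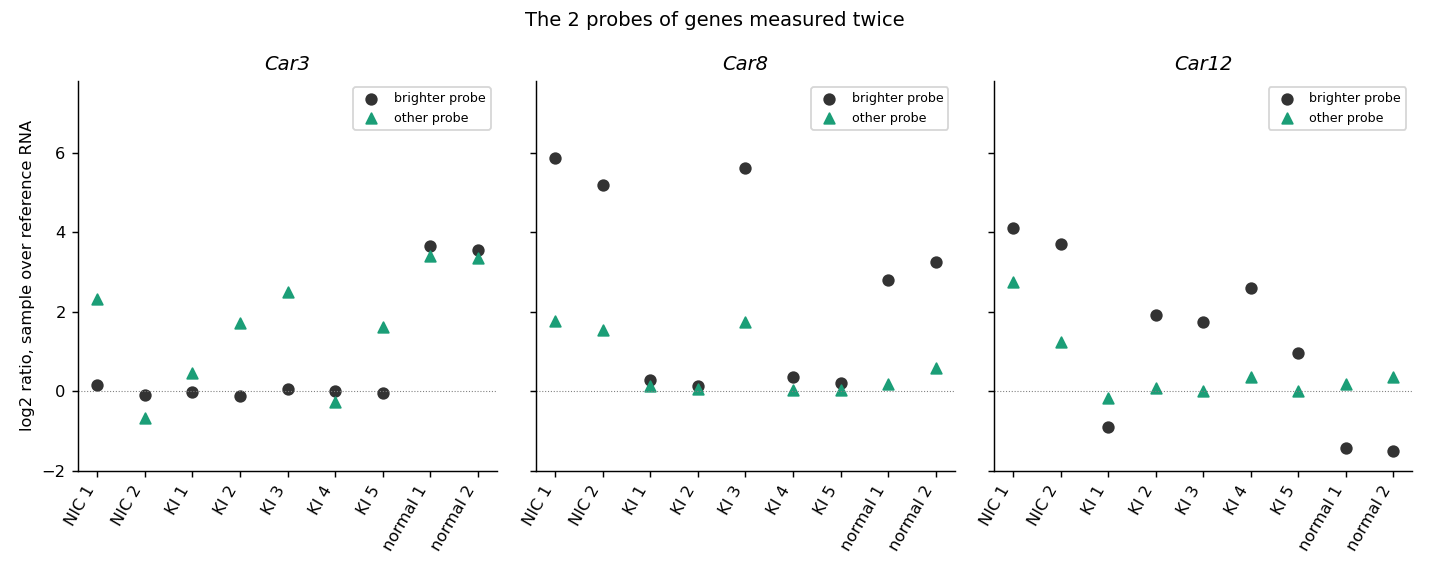
Levels by the brighter probe (circles) and the other probe (triangles) of Car3, Car8 and Car12, the members with 2 probes, in the 9 RNA samples (vertical axis, log2 ratio of sample over reference RNA). Both Car8 probes are high in KI tumour 3 (5.62 and 1.74), the other Car3 probe varies among tumours where the brighter one does not, and the other Car12 probe is at 1.24 or more in the NIC pools and at 0.36 or less elsewhere.

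Car4 encodes the lipid-anchored enzyme of the cell surface, known from capillary endothelium. Its level was −0.060 and −0.025 in the NIC pools, 0.054, −0.21, 0.024, −0.090 and 0.033 in KI tumours 1 to 5, and 3.18 and 3.05 in normal glands. As for the brighter Car3 probe, the 7 tumour samples lay together near 0 and the groups did not overlap. Means were −0.042 ± 0.025 in NIC pools (SD, n = 2), −0.037 ± 0.11 in KI tumours (n = 5) and 3.11 ± 0.087 in normal glands (n = 2). Car4 was 8.92-fold lower in NIC pools and 8.89-fold lower in KI tumours than in normal glands (differences −3.16 and −3.15). The dyes disagreed by 1.63 log2 units in normal gland 2, and the differences were −2.54 and −2.56 by the Cy3 arrays alone and −3.78 and −3.74 by the Cy5 arrays alone. Scaled to 1 interquartile range, both differences were −1.99. The KI signal was 3.68 to 4.43 times the level under which 95% of negative control spots of the same array lay, a measure added after the values were seen.

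Endothelium markers are given beside Car4. Of 12 such genes limma called 5 lower and 1 higher in the NIC pools (9.81% and 8.79% of all genes). Their median level was 1.46 and 1.35 in NIC pools, 0.84 to 2.07 in KI tumours, and 2.67 and 2.82 in normal glands. The angiopoietin receptor gene Tek was lower in the NIC pools (−3.16 ± 0.41 SE, adjusted p = 0.0253 by limma). The part of endothelium in the Car4 levels was not tested.

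**Figure D3:**
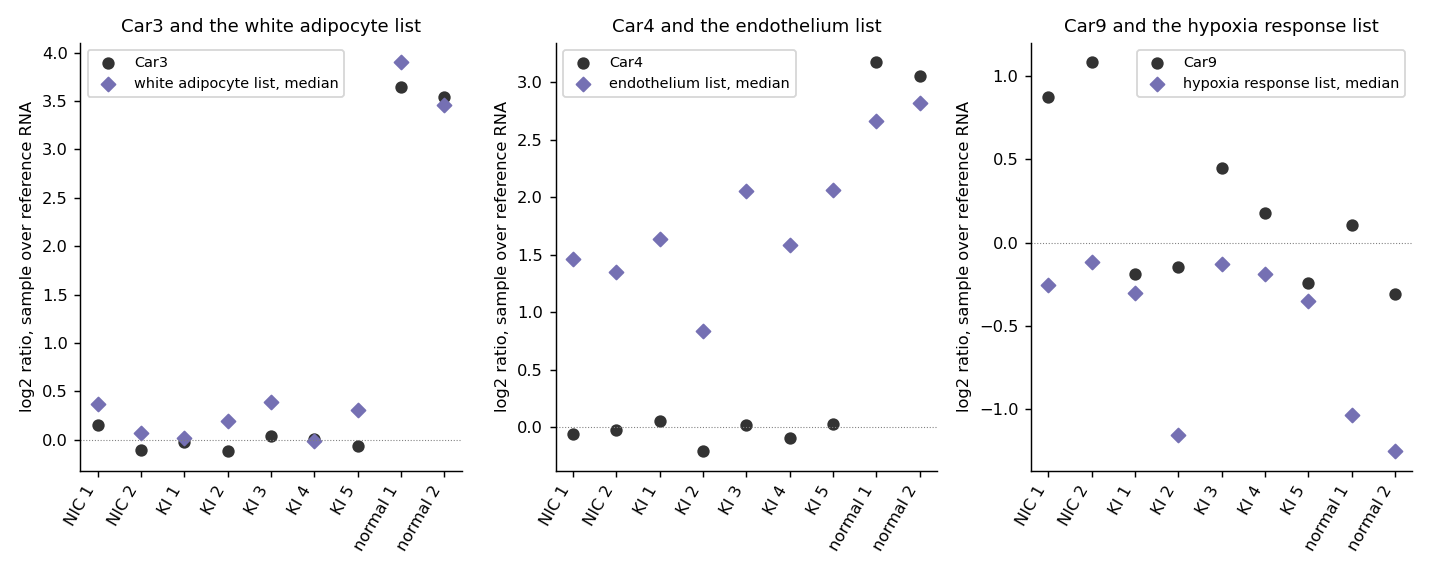
Levels (vertical axes, log2 ratio of sample over reference RNA) of Car3, Car4 and Car9 in each of the 9 RNA samples, with the median level of the white adipocyte, endothelium and hypoxia response genes in the same samples. Points are to be read across samples and not between a gene and a list, since levels of different probes are not comparable. The adipocyte and endothelium medians are highest in the normal glands (3.90 and 3.46, and 2.67 and 2.82), as Car3 and Car4 are, and the hypoxia median of KI tumour 2 (−1.16) is with the normal glands (−1.04 and −1.25).

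Car9 encodes the membrane enzyme that is induced by low oxygen. Its level was 0.88 and 1.09 in the NIC pools, −0.19, −0.14, 0.45, 0.18 and −0.24 in KI tumours 1 to 5, and 0.11 and −0.31 in normal glands. Both NIC pools lay above all other samples, while KI tumours and normal glands overlapped. Means were 0.98 ± 0.15 in NIC pools (SD, n = 2), 0.011 ± 0.29 in KI tumours (n = 5) and −0.10 ± 0.30 in normal glands (n = 2). Car9 was 2.12-fold higher in NIC pools than in normal glands (difference 1.08). That difference is close to the minimum of 1 log2 unit, and it was 0.98 without NIC pool 2 and 0.87 without normal gland 2. In KI against NIC the groups did not overlap either, with a difference of −0.97.

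Car12 encodes the second membrane enzyme with its active site outside the cell. By the brighter probe the level was 4.09 and 3.71 in the NIC pools, −0.91, 1.91, 1.74, 2.58 and 0.96 in KI tumours 1 to 5, and −1.44 and −1.50 in normal glands. The 3 groups did not overlap, with NIC pools on top and normal glands at the bottom, and KI tumour 1 stood nearest to the glands. The means were 3.90 ± 0.27 in NIC pools (SD, n = 2), 1.26 ± 1.34 in KI tumours (n = 5) and −1.47 ± 0.039 in normal glands (n = 2). Car12 was 41.4-fold higher in NIC pools and 6.62-fold higher in KI tumours than in normal glands (differences 5.37 and 2.73), and 6.26-fold lower in KI tumours than in NIC pools (−2.65). The dyes of this probe disagreed by 1.13 log2 units in NIC pool 1. The NIC difference from normal was 4.90 by the Cy3 arrays alone and 5.85 by the Cy5 arrays alone. With arrays scaled to 1 interquartile range it was 4.73, and KI tumours and normal glands overlapped.

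The other Car12 probe was higher in the NIC pools as well, but not in KI tumours. It stood at 2.74 and 1.24 in the NIC pools, −0.18, 0.084, 0.013, 0.35 and −0.0026 in KI tumours 1 to 5, and 0.17 and 0.36 in normal glands. KI tumours and normal glands overlapped by this probe (difference −0.21), and the NIC difference from normal was 1.72. In NIC pool 1 its dyes disagreed by 1.46 log2 units. On the mean of both probes Car12 was higher by 3.55 in NIC pools and by 1.26 in KI tumours.

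Since the human gene of CAXII responds to oestrogen, hormone-responsive genes are set beside Car12. Of 14 hormone-responsive luminal genes limma called 2 higher and 4 lower in the NIC pools (8.79% and 9.81% of all genes). Their median level was 0.047 and 0.084 in NIC pools, 0.045 to 0.22 in KI tumours, and 0.23 and 0.12 in normal glands. Within the list, Xbp1, a transcription factor of secretory cells, was higher in the NIC pools (3.94 ± 0.47 SE, adjusted p = 0.0220 by limma), and Areg, encoding the growth factor amphiregulin, was lower (−4.55 ± 0.14, adjusted p = 0.00776 by limma). The part of hormone response in the Car12 levels was not tested.

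Car6 encodes the secreted enzyme. Its level was 2.70 and 3.31 in the NIC pools, −1.35, 1.3, 2.22, 0.51 and 0.81 in KI tumours 1 to 5, and −0.71 and −0.44 in normal glands. Both NIC pools lay above every other sample, 4 KI tumours lay above the normal glands, and KI tumour 1 lay below them. The means were 3.0 ± 0.43 in NIC pools (SD, n = 2), 0.70 ± 1.31 in KI tumours (n = 5) and −0.58 ± 0.19 in normal glands (n = 2). Car6 was 12-fold higher in NIC pools than in normal glands (difference 3.58) and 4.94-fold lower in KI tumours than in NIC pools (−2.30). The dyes disagreed by 1.36 log2 units in NIC pool 2 and by 0.85 in normal gland 2. The NIC difference from normal was 3.59 by the Cy3 arrays alone and 3.57 by the Cy5 arrays alone. Against normal glands the KI difference of 1.28 came with overlapping groups. Without KI tumour 1 it was 1.79 and the groups no longer overlapped.

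Salivary gland markers are given beside Car6. Of 12 measured genes limma called 2 higher and 1 lower in the NIC pools (8.79% and 9.81% of all genes). Their median level was 0.19 and 0.43 in NIC pools, 0.0014 to 0.12 in KI tumours, and 0.14 and 0.24 in normal glands. The amylase gene Amy1, a defining enzyme of saliva, was lower in NIC pools (−4.16 ± 0.13 SE, adjusted p = 0.00776 by limma), and Egf, encoding epidermal growth factor, was higher (3.07 ± 0.15, adjusted p = 0.00828 by limma). Other Amy1 probes differed by −5.02 to 0.46 in NIC against normal. By the rule of groups apart, 5 of the 12 genes were higher in NIC pools and 1 lower (10.8% and 8.1% of all genes). The part of salivary tissue in the Car6 levels was not tested.

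By the brighter probe of each gene, single KI tumours differed most in Car8, over a range of 5.48 log2 units. Car6 (3.57), Car12 (3.49) and Car13 (2.96) followed. The range was 0.98 for Car2, 0.69 for Car9, 0.26 for Car4 and 0.16 for the brighter probe of Car3. By the other probes, KI levels ran from −0.18 to 0.35 for Car12, 0.017 to 1.74 for Car8 and −0.27 to 2.49 for Car3. The order thus depends on the probe. KI tumour 1 was the lowest of the 5 for Car2, Car6 and Car12. KI tumour 3 was the highest for Car3, Car6, Car8, Car9 and Car13. The cause of these differences between single tumours was not tested.

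Promoter sequence is shown for Car9, Car6 and Car12, the members that were higher in NIC pools and had an entry in the RefSeq promoter table (GRCm38.p6), which held 4 of the 8 members. Each run has the 250 bases before the annotated start and the 50 from it on, on the strand of the gene. They lie at chr4:43506776-43507075 on the plus strand for Car9, chr4:150201086-150201385 on the minus strand for Car6 and chr9:66713436-66713735 on the plus strand for Car12. The letters ACGTG and GCGTG, the core of the element bound by hypoxia-inducible factors, were searched on both strands (CACGT and CACGC on the reverse) and are in capitals.
Car9: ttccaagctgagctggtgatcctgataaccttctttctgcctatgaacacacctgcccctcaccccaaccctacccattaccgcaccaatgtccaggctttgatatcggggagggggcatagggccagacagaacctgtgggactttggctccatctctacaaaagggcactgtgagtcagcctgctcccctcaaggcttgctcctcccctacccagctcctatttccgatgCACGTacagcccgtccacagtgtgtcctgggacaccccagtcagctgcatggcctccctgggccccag
Car6: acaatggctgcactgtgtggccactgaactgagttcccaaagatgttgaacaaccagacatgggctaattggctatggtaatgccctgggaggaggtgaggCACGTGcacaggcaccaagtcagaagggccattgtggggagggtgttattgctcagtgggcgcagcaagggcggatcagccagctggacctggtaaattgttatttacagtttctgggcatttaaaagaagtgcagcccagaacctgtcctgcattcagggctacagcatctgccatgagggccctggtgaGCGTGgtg
Car12: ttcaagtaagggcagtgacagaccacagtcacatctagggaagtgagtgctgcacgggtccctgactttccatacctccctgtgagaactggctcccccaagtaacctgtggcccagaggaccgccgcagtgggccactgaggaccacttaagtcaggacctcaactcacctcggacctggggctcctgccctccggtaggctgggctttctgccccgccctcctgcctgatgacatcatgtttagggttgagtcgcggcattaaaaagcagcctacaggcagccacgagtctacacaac
Car9 held 1 match, a reverse CACGT that begins 18 bases before the start. Car6 held 3 matches, of which CACGT and ACGTG overlap as the palindrome CACGTG 149 bases before the start, and Car12 held 0. Car4, the fourth member with an entry, held 1. Among 32851 promoters, 43.8% held at least 1 match, 19.6% held ACGTG and 7.15% held CACGTG on either strand, so a match is common and is a description only.

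Hypoxia response genes were counted beside Car9. Of 33 measured genes limma called 9 higher and 4 lower in NIC pools against normal glands (8.79% and 9.81% of all genes). The oxygen sensor gene Egln3 was 17.6-fold higher in the NIC pools (4.13 ± 0.23 SE, adjusted p = 0.00936 by limma) and the oxidoreductase gene Ero1a 13.1-fold higher (3.71 ± 0.31, adjusted p = 0.0137 by limma). The hexokinase gene Hk1 was higher by 2.41 ± 0.19 (adjusted p = 0.0131 by limma), and its other probes ran from −0.096 to 3.68. Pfkfb3, a regulator of glycolysis, was lower (−3.03 ± 0.36, adjusted p = 0.0224 by limma), and its other probes ran from −1.50 to −0.38.

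The list did not follow Car9 in every sample. Its median level was −0.25 and −0.12 in the NIC pools, −0.30, −1.16, −0.13, −0.19 and −0.35 in KI tumours 1 to 5, and −1.04 and −1.25 in normal glands. All tumours but KI tumour 2 lay above the normal glands, whereas Car9 was above them in the NIC pools and in KI tumours 3 and 4. Against normal glands 9 list genes were apart and higher in KI tumours and 3 lower (9.62% and 5.92% of all genes). The part of hypoxia in the Car9 levels was not tested.

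Among 19 bicarbonate transporter genes 3 were called higher and 1 lower in the NIC pools (8.79% and 9.81% of all genes). The anion transporter gene Slc26a9 was higher by 1.11 ± 0.16 SE (adjusted p = 0.0303 by limma), the sulfate transporter gene Slc26a2 by 1.09 ± 0.16 (adjusted p = 0.0321 by limma) and the sodium-bicarbonate cotransporter gene Slc4a7 by 1.0 ± 0.18 (adjusted p = 0.0416 by limma). The other Slc4a7 probe differed by −0.0048. The anion exchanger gene Slc26a6 was lower (−0.57 ± 0.11, adjusted p = 0.0467 by limma). In KI tumours Slc26a9 and Slc4a7 were apart from normal glands and higher, by 1.09 and 1.27.

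Proton and lactate transporter genes had 28 measured members. Of these 6 were called higher and 3 lower in the NIC pools (8.79% and 9.81% of all genes). A subunit gene of the vacuolar proton pump, Atp6v1a, was 17.1-fold higher (4.10 ± 0.60 SE, adjusted p = 0.0301 by limma), and its other probe differed by 3.63. Another subunit gene, Atp6v1b1, was higher by 2.52 ± 0.24 (adjusted p = 0.0171 by limma), Bsg, encoding the partner of lactate transporters basigin, by 2.98 ± 0.52 (adjusted p = 0.0404 by limma), and Slc9a3r1, encoding a scaffold of sodium-proton exchangers, by 2.14 ± 0.31 (adjusted p = 0.0295 by limma). Against normal glands 6 of the list were apart and higher in KI tumours and 1 lower (9.62% and 5.92% of all genes). Among the higher ones were Atp6v1a (3.07), Slc9a3r1 (2.79) and Bsg (1.90).

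Of the other 8 carbonic anhydrases, limma called 1 higher and 2 lower in NIC pools than in normal glands (8.79% and 9.81% of all genes). The remaining 5 did not pass the test. Car15, a lipid-anchored enzyme in mice, was at 0.42 and 0.037 in NIC pools and −0.76 and −0.75 in normal glands, a difference of 0.98 ± 0.17 SE (adjusted p = 0.0395 by limma). The mitochondrial enzyme Car5a was at −0.080 and 0.018 in NIC pools and 0.81 and 0.76 in normal glands (−0.82 ± 0.10, adjusted p = 0.0235 by limma). The other mitochondrial enzyme, Car5b, was at 1.19 and 1.21 in NIC pools and 2.04 and 2.07 in normal glands (−0.86 ± 0.094, adjusted p = 0.02 by limma), but the other Car5b probe differed by 0.49. Car5a and Car15 lost the call with the Cy3 arrays alone and with any 1 sample left out, Car15 also when arrays were scaled to 1 interquartile range. Car5b lost it under that scaling (−0.11), on the mean of its probes (−0.18), with the Cy3 arrays alone, without either NIC pool, with a trended and robust fit, and in a fit of all 9 samples.

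The rest of the family differed by less. Car11, an inactive relative, differed by −0.63 ± 0.13 SE (adjusted p = 0.0509 by limma), and Car7, a cytosolic enzyme of brain, by −0.48 ± 0.13 (adjusted p = 0.0802 by limma). The inactive relative Car10 differed by −0.35 ± 0.11 (adjusted p = 0.106 by limma), the red cell enzyme Car1 by −0.27 ± 0.16 (adjusted p = 0.295 by limma) and the membrane enzyme Car14 by 0.12 ± 0.11 (adjusted p = 0.496 by limma). In KI tumours Car5b was apart from normal glands (−1.77) by the probe used, but its other probe differed by 0.0029 with overlapping groups. The probe used had levels of 0.28, 1.0, −0.039, 0.011 and 0.17 in KI tumours 1 to 5. Car7 was at 1.88 in KI tumour 3 and at 0.33 to 0.95 in the other KI tumours.

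**Figure D4:**
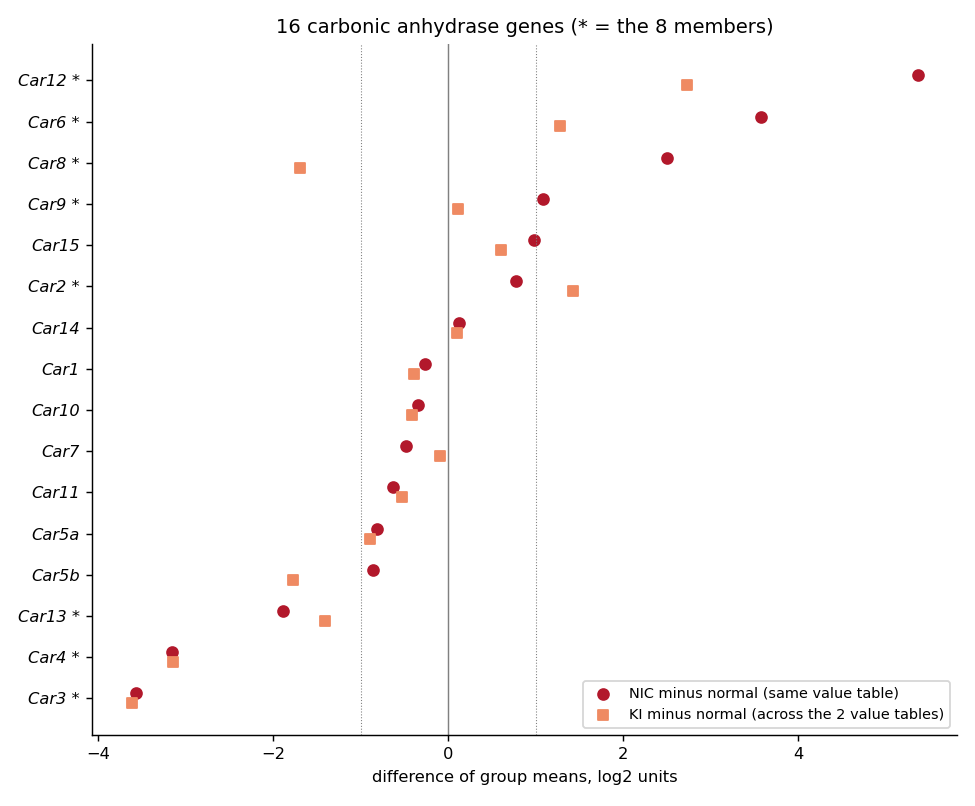
Difference of group means (horizontal axis, log2 units) for the 16 carbonic anhydrase genes, as NIC minus normal (circles) and KI minus normal (squares), ordered by the NIC difference. Dotted lines mark 1 log2 unit. Car12 (5.37 in NIC) and Car3 (−3.56 in NIC) lie at the ends. Car8 is to the right of 0 for NIC (2.5) and to the left for KI by the brighter probe (−1.70). Its other probe gave 0.010 for KI but was too dim in KI tumours 1, 2, 4 and 5 to show a decrease.

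For the 6 members that ranged over at least 2 log2 units, the named genes with the most similar profile over the 9 RNA samples were found by the root mean square difference after centring each gene on its mean. Each gene was taken by its brighter probe alone, so the matches of Car3, Car8 and Car12 do not cover their other probes. Closest to Car3 by that probe were Alb, encoding albumin (0.12 log2 units), and Hcar1, encoding the lactate receptor of fat cells (0.12). The other Car3 probe varied more among tumours. Closest to Car4 were Ccdc69 (0.11) and Lctl (0.12), whose levels likewise were high in both normal glands and low in all tumours. Car13 was most like Gbp9 (0.37) and Gbp6 (0.39), guanylate-binding protein genes that interferon induces, and these were high in KI tumours 1 and 3 and in normal glands. Car12 was most like Etnk1 (0.51), encoding a kinase of ethanolamine, and Id2 (0.55), encoding an inhibitor of basic helix-loop-helix factors. Car6 was most like Atp1b1 (0.54), encoding a sodium pump subunit, and BC064078 (0.54). The genes nearest to Car8 were farther off, Sec14l4 at 1.01 and the Notch target gene Hey1 at 1.23.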

How the data were processed

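Messenger RNA was measured on 2-colour Agilent arrays of 43790 spots, 2 arrays per RNA with the dyes exchanged. The deposited value tables hold log2 ratios, taken as sample over reference. For KI arrays this was checked against the scanner files (r = 0.941 to 0.953 over spots). For NIC and normal arrays scale, direction and spot layout were taken by analogy. RMA is named in the submitters' processing notes, without its role; for the remaining steps a description is not given in the sources used here. Per the file headers, the scanner files were written by Agilent Feature Extraction A.7.5.1 and hold the intensity of each channel and a log10 ratio (Cy5 divided by Cy3). Where protocol text and label fields of KI arrays disagreed on the dyes, the label fields were followed.

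All 2256 control spots were left out. Probes were named by accession (20708), symbol (5045) or older symbol (5279) through RefSeq (GRCm38.p6), and 10142 kept the file's name. Each gene was represented by its probe of highest mean log2 signal over both channels of the KI arrays, sample and reference, called the brighter probe. Dye pairs were averaged, so that 1 RNA sample is 1 replicate, and NIC against normal was fitted with limma 3.58.1 under R 4.3.3 (a two-sided moderated test by lmFit and eBayes, Benjamini-Hochberg over 28919 genes, called at adjusted p under 0.05). The ± SE values are limma's. The labels say nothing of litters, so p-values reflect only how these samples spread, and their number limits the precision. On simulated data for this comparison limma called 0, 27, 27 and 37 of 50 genes changed by 1, 2, 3 and 4 log2 units. Only 50 of 28919 genes were changed by each amount there. In the measured data limma called 18.6% of all genes, with Slc26a6 at −0.57 among them. The Benjamini-Hochberg cut-off depends on the share of changed genes, so these counts do not give the smallest difference that could be called here.

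The members and gene lists were chosen with earlier results of these data known. Named are all members and other carbonic anhydrases, per pathway list up to 4 called genes with the largest NIC difference and up to 3 apart genes with the largest KI difference, and up to 2 genes per marker list. Alternatives changed the dye, the probe of a gene, the scaling, the filter on dim probes, the fit, the samples, and the KI values (normexp with offset 50 and loess, with outlier spots left out, or the scanner log ratio). Image extraction of KI arrays took place on 2 days, with 2 arrays on the smaller one. Both days hold KI arrays only, so they were not fitted against the groups.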

Additional observations from a re-analysis of the deposited data

Results flagged for a closer look

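Car8 in KI tumour 3 stood apart from the other 4 KI tumours by both of its probes. The brighter probe was at 5.62 there and at 0.14 to 0.36 in the others, a gap that took up 0.960 of the range of the group. The other probe was at 1.74 there and at 0.017 to 0.13 in the others, a gap of 0.936 of the range. Both probes read the same RNA. The gene was chosen by its levels in these samples, so the gaps are a description and not a test. The cause was not tested.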

How the results depend on the processing

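Of 272 differences of members recomputed under alternatives, 243 moved by less than the larger group SD, 29 moved by more and 0 of those that were apart changed sign. Leaving out 1 sample cannot move a difference by more than that SD, so such alternatives could not count among the 29. Where the SD was large, as for Car8 in KI tumours (2.41), a move from −1.70 to −0.44 under scaling also counted as less. The members apart numbered 6 to 8 in NIC against normal (7 as reported) and 3 to 5 in KI against normal (4 as reported). In KI against NIC they numbered 2 to 3 with all samples and 2 to 4 with 1 left out (2 as reported), the 4 without KI tumour 3, when Car8 and Car9 joined Car6 and Car12. The genes apart in KI against normal were 4494, and 2965 with arrays scaled to 1 interquartile range.

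The number of genes limma called in NIC against normal (5379) was 2041 with Cy3 arrays alone, 3435 among genes above the median signal, where fewer were tested, 10396 with all 9 RNA samples in the fit and 10638 with single arrays fitted and RNA sample taken as a random block, whose estimated correlation was −0.0019. It ran from 0 to 4236 with 1 sample left out, and was 0 without either NIC pool. The call counts of the lists moved with it. Cy3 arrays alone gave 0 of the other carbonic anhydrases (3 as reported), 0 bicarbonate transporters (4), 2 proton and lactate transporters (9) and 7 hypoxia response genes (13), and Cy5 arrays alone 2 bicarbonate transporters. Above the median signal there were 1 of the other carbonic anhydrases, 2 bicarbonate transporters and 4 proton and lactate transporters. The fit of all 9 samples gave 10 bicarbonate transporters, and the random block 9 of them and 5 of the other carbonic anhydrases. With 1 sample left out the ranges were 0 to 1 for the other carbonic anhydrases, 0 to 3 for bicarbonate transporters, 0 to 8 for proton and lactate transporters and 0 to 17 for hypoxia response genes. Of 31 called genes picked by the naming rule, 10 stayed called under each alternative with the full set of samples, 20 without either normal gland and 0 without either NIC pool. Except where a smaller set of samples or genes was tested, the cause was not tested. No paired analysis was possible because the labels give no numbers shared across groups. Ratios near 0 in dim probes limit what the low levels of NIC and normal arrays show, since their signals were not used here.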

Other observations

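The genes around Car8 on chromosome 4 were looked at after its level in KI tumour 3 was seen. Of 12 measured neighbours, 6 on each side in RefSeq order, KI tumour 3 was the highest KI tumour for 1, Nsmaf. Its level minus the median of the other KI tumours ran from −0.16 for Sdcbp to 0.96 for Asph, encoding a hydroxylase of aspartate.

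Lymphocyte genes, which no comparison above uses, were lower in NIC pools for 4 of 11 and higher for 0 by limma (9.81% and 8.79% of all genes). Their median level was −0.30 and −0.23 in NIC pools, −0.67 to −0.49 in KI tumours, and 0.40 and −0.17 in normal glands.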
